A study of Mus musculus with 6 samples.

Results

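Expression of 10 genes of the bone morphogenetic protein (BMP) and transforming growth factor beta (TGF-beta) pathways was followed in 6 RNA-sequencing libraries from mouse colonic organoids. The genes were taken by symbol from the 25067 rows of the deposited table, and all 10 were found there: the ligands Bmp2, Bmp4 and Tgfb1, the receptors Bmpr1a and Tgfbr2, the inhibitory Smads Smad6 and Smad7, and the Id genes Id1, Id2 and Id3. The organoids are cultures of colonic epithelium, here grown from crypts of C57BL/6 mice aged 8 weeks. Every library, controls included, carried the genotype Prkcif/fPrkczf/f;Villin-CreERT2, that is, floxed alleles of the genes for the atypical protein kinases C, Prkci and Prkcz, and a Cre recombinase that 4-hydroxytamoxifen (4-OHT) activates. When passaged, the organoids of 3 libraries received ethanol (vehicle, labelled wild type) and those of the other 3 received 4-OHT (labelled Prkci/Prkz-DKO), and RNA was taken after 3 days.

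The Villin promoter restricts Cre to intestinal epithelium. With no 4-OHT library that lacks Cre or the floxed alleles, the deletion, Cre activity and 4-OHT itself cannot be told apart in these 6 libraries. The labels do not say whether the 3 libraries of a group came from separate mice or cultures, so p-values measure only the spread between these libraries, which may be technical. The medium held B27, WNT3A, EGF, R-spondin 1 and Noggin, a secreted protein that binds BMP ligands and blocks their action, in both groups.

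BMP and TGF-beta ligands bind type II and type I receptor kinases at the cell surface. BMP receptors phosphorylate Smad1, Smad5 and Smad9, whereas TGF-beta and activin receptors phosphorylate Smad2 and Smad3, and both sets of Smads enter the nucleus with Smad4. Id genes are classical BMP targets whose proteins block basic helix-loop-helix transcription factors, and Smad6 and Smad7 are induced by the pathway and restrain it in turn. In the gut, BMP activity is high toward the differentiated end of the crypt, and antagonists from the mesenchyme keep it low at the stem-cell base.

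Prkcz had 880, 904 and 954 normalised counts in vehicle replicates 1, 2 and 3 and 287, 265 and 290.3 in 4-OHT replicates 1, 2 and 3, a change of -1.70 ± 0.08 in the log2 of the normalised count plus 1 (4-OHT minus vehicle, called the log2 change from here on, with its SE, limma adjusted p = 3.17e-12). Prkci changed less, from 3603, 3526 and 3429.7 to 2869, 3105 and 3089 (-0.22 ± 0.05, limma adjusted p = 0.000813), so both floxed genes were lower in all 3 4-OHT libraries. The normalised counts came from 15804709 to 26957612 reads per library. The 10 epithelial markers, of which the keratins Krt8 and Krt18 held most reads, summed to 13660 to 14030 RPM (recovered reads per 1000000 of the library) in vehicle and 17610 to 18830 in 4-OHT. Of these markers 7 were higher, Cdx2 was lower (-0.26, limma adjusted p = 6.88e-05) and 2 did not pass, and the colonic marker Car4 had 1, 2 and 2 reads in vehicle and 5, 11 and 44 in 4-OHT. The 4-OHT libraries 2 and 3 stood apart from the others in the 8 Paneth-cell and ileal markers, at 48.3 and 46.5 RPM against 11.8 in 4-OHT replicate 1 and 10.6 to 18.0 in vehicle. Of these 8 markers 6 were called higher in 4-OHT. Lyz1, which held most of their reads in vehicle (0.37, limma adjusted p = 0.112), and Itln1 (0.62, limma adjusted p = 0.154) did not pass. The 4-OHT libraries 2 and 3 also had more reads of the 6 smooth muscle markers (3.22 and 8.18 RPM, against 0.727 in 4-OHT replicate 1 and 0.147 to 0.696 in vehicle). For the 9 fibroblast markers 4-OHT replicate 3 had the most (11.5, against 2.49, 2.66 and a vehicle range of 2.34 to 3.97). Of the 202 fibroblast marker reads in 4-OHT replicate 3, Col3a1 held 100. The fibroblast marker Pdgfrb went the other way and was lower in 4-OHT (log2 change -0.71, limma adjusted p = 0.0499). The 8 leukocyte markers, mainly Cd68, came to 7.73 to 9.09 RPM in 4-OHT and 9.68 to 12.1 in vehicle. Only 2 of them were tested, and they went opposite ways. Cd68 was lower in 4-OHT (log2 change -0.42, limma adjusted p = 0.0149) and Csf1r was higher (1.20, limma adjusted p = 0.0295). The 5 endothelial markers in the table summed to at most 0.715 RPM. The part of these reads in the results that follow was not tested, and in bulk RNA fewer cells of a type and less RNA per cell cannot be told apart.

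Among the 9 members with a mean normalised count of at least 10, Tgfb1, Tgfbr2 and Smad7 were higher and Smad6, Id2 and Bmp2 were lower in 4-OHT organoids, whereas Id1, Id3 and Bmpr1a did not pass the test. The changes were small, with log2 changes between -0.55 and 0.33 and a median of 0.11, beside a median of -0.0054 over all 13210 rows tested. The 3 higher members are to be read beside 22.7% of all tested rows called higher, and the 3 lower members beside 21.0% called lower (43.6% in either direction). The ranges of vehicle and 4-OHT values did not overlap in 5 of the 9 members, against 52.1% of all tested rows, a share close to that of the members. Bmp4 was too low to be tested.

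**Figure D1:**
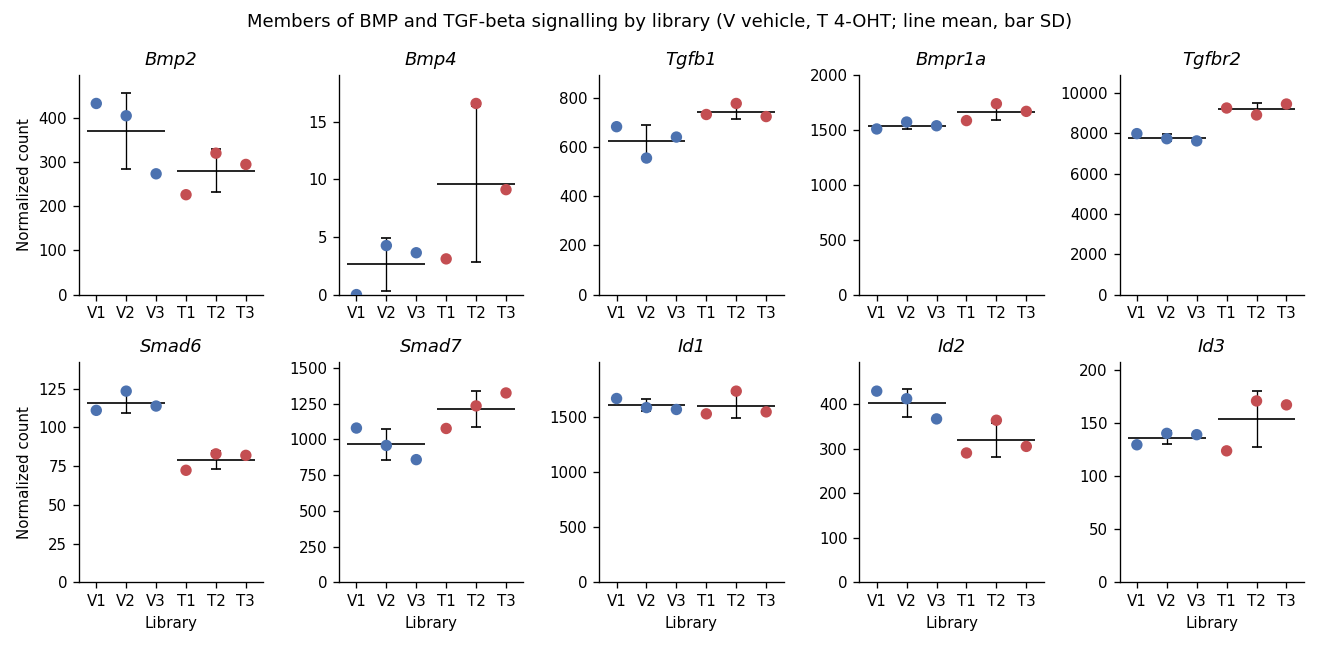
Normalised counts of the 10 genes in each of the 3 vehicle and 3 4-OHT libraries, with a line at the group mean and a bar for the SD (V vehicle, T 4-OHT, with the replicate number). The groups lie apart for Smad6, Id2, Tgfb1, Tgfbr2 and Bmpr1a and overlap for Id1, Id3, Smad7, Bmp2 and Bmp4.

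Promoter windows are shown for 4 members whose calls the description turns on, the lower Smad6 and Id2 and the higher Tgfb1 and Tgfbr2, to set their starts beside letters that Smad proteins are known to bind. Each runs from 250 bases before to 50 after the gene start, read 5′ to 3′ on the strand of the gene from RefSeq (GRCm38.p6). Windows were at hand for 7 of the 10 members, matched by symbol, and Id1, Smad7 and Bmp2 were not scanned. Windows of a single chromosome were left out, for the members and for all windows counted below. Capitals mark GTCTAGAC, GGCGCC or GTCTG on either strand (the other strand of GTCTG reads CAGAC), and a match is a description of the letters, not a site. The windows lie at chr9:64022010-64022309 (minus strand, Smad6), chr12:25096043-25096342 (minus strand, Id2), chr7:25686752-25687051 (plus strand, Tgfb1) and chr9:116175314-116175613 (minus strand, Tgfbr2).
Smad6: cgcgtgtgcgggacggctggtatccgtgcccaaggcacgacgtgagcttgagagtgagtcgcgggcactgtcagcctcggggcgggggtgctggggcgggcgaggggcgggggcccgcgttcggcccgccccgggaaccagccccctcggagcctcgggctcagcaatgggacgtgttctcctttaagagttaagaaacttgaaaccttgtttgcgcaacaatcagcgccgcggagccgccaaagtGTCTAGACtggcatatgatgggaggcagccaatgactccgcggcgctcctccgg
Id2: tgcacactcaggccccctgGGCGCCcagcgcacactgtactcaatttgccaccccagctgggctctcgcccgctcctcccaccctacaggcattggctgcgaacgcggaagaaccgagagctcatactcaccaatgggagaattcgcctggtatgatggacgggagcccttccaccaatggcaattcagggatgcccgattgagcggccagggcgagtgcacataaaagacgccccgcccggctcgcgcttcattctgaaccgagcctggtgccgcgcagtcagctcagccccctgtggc
Tgfb1: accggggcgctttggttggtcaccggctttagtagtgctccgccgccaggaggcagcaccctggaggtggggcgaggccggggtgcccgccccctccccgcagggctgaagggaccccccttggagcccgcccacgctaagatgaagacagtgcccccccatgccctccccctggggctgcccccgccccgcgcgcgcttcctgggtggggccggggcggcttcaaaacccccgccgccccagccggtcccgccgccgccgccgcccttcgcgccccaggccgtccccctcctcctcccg
Tgfbr2: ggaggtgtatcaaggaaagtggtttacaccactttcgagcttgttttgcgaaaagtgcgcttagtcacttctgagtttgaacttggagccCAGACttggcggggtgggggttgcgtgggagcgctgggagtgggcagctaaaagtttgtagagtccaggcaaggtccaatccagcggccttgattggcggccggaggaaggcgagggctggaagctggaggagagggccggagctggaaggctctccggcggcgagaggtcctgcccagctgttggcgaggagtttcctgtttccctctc

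The palindromic Smad box GTCTAGAC, which itself holds no GTCTG, began at position -4 from the start of Smad6 and was in 0.213% of the 32851 windows of that length. GGCGCC, a GC-rich element bound by Smad1 and Smad5, began at -231 in Id2 and at -198 in Bmpr1a, and 11.9% of all windows held it. GTCTG, the short Smad3 and Smad4 element, was at -160 in Tgfbr2 and at -167 and -68 in Id3, as in 49.6% of all windows. The Tgfb1 and Bmp4 windows held none of these letters. Of the members with GGCGCC, Id2 was lower in 4-OHT and Bmpr1a did not pass the test.

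The ligand Bmp2, which signals through Bmpr1a, had 433, 405 and 274 normalised counts in vehicle replicates 1, 2 and 3 and 226, 320.3 and 295 in 4-OHT replicates 1, 2 and 3. The vehicle libraries were mostly above, but vehicle replicate 3 was below 4-OHT replicates 2 and 3. The means were 371 ± 85.1 and 280.5 ± 48.6 (SD, n = 3), with a log2 change of -0.39 ± 0.14 (SE, limma adjusted p = 0.0362). Bmp2 had the widest spread within groups of the tested members, a pooled coefficient of variation of 21.3% against a median of 6.87% over all tested rows. The call rested on single libraries: the limma adjusted p was 0.199 (-0.26) without vehicle replicate 1, 0.141 (-0.31) without vehicle replicate 2 and 0.176 (-0.24) without 4-OHT replicate 1. With DESeq2 on the recovered reads it was 0.192.

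Bmp4, which in the gut is made largely by the mesenchyme, was near the detection limit in both groups. It was counted with 0, 6 and 3 reads in vehicle replicates 1, 2 and 3 and with 3, 16 and 8 reads in 4-OHT replicates 1, 2 and 3, which are 0, 4.26 and 3.63 against 3.10, 16.6 and 9.11 normalised counts. The groups overlapped, and the highest values were in 4-OHT replicates 2 and 3, the libraries with the most smooth muscle marker reads. When rows of any level entered the test, Bmp4 did not pass it (log2 change 1.63 ± 0.68 SE, limma adjusted p = 0.0855).

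Tgfb1, the prototype TGF-beta ligand, had 684, 556 and 642 normalised counts in vehicle and 734, 778 and 725 in 4-OHT, in order of replicate. All 3 4-OHT libraries were above all 3 vehicle libraries. The means were 627 ± 65.1 and 746 ± 28.7 (SD, n = 3), and the log2 change was 0.25 ± 0.08 (SE, limma adjusted p = 0.0113). The lowest value was in vehicle replicate 2, and without that library the log2 change was 0.17 with a limma adjusted p of 0.104.

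The type II receptor Tgfbr2 binds TGF-beta and activates the type I receptor Tgfbr1. It was the most highly counted member, with 7982.5, 7729.9 and 7621 normalised counts in vehicle replicates 1, 2 and 3 and 9253, 8909 and 9450.5 in 4-OHT replicates 1, 2 and 3. The lowest 4-OHT library was above the highest vehicle library. The means of 7778 ± 185.5 and 9204 ± 274 (SD, n = 3) differed by 0.24 ± 0.04 (log2, SE, limma adjusted p = 0.000105). This was the narrowest spread of the tested members (coefficient of variation 2.76%), and the difference was 1.18-fold. The direction held in all 16 alternative settings, with log2 changes from 0.16 to 0.27. The call held in each of them with more than 1 4-OHT library.

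Bmpr1a, a type I receptor for BMP2 and BMP4, had 1509.5, 1573 and 1539 normalised counts in vehicle and 1586, 1739 and 1669.9 in 4-OHT, in order of replicate. The 4-OHT libraries were all higher, by a log2 change of 0.11 ± 0.05 (SE), but the test was not passed (limma adjusted p = 0.099). The 95% interval of the log2 difference ran from 0.0001 to 0.22. Without 4-OHT replicate 1 the value was 0.15 with a limma adjusted p of 0.0441.

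The inhibitory Smads moved in opposite directions. Among the 7 members with a promoter window, only that of Smad6 held GTCTAGAC. The Smad7 promoter was not scanned, so this motif cannot be compared between Smad6 and Smad7. Smad6 acts mainly on BMP signals by binding BMP type I receptors and Smad1. It had 111, 123 and 114 normalised counts in vehicle replicates 1, 2 and 3 and 72.3, 82.9 and 82.0 in 4-OHT replicates 1, 2 and 3. Every 4-OHT library was below every vehicle library. The mean fell from 116 ± 6.51 to 79.1 ± 5.87 (SD, n = 3), to 0.681 of the vehicle mean, with a log2 change of -0.55 ± 0.15 (SE, limma adjusted p = 0.00637). Of all tested rows, 15.6% had a larger log2 change in size. Smad6 was lower in all 16 alternative settings, from -0.67 to -0.49, and the fall was called in each of them with more than 1 4-OHT library.

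Smad7, which restrains both TGF-beta and BMP receptors, had 1079, 958 and 858 normalised counts in vehicle and 1076.5, 1234.5 and 1325 in 4-OHT, in order of replicate. The groups overlapped at a single point, with 4-OHT replicate 1 just below vehicle replicate 1. The mean rose from 965 ± 110.7 to 1212 ± 126 (SD, n = 3), a log2 change of 0.33 ± 0.08 (SE, limma adjusted p = 0.00249). With 4-OHT replicate 1 as the sole treated library the value was 0.16, smaller than over all 3 4-OHT libraries. Within each library the log2 ratio of Smad7 to Smad6 was 2.79, 2.46 and 2.42 in vehicle and 3.40, 3.40 and 3.52 in 4-OHT. The difference of 0.89 separated the groups, with the smallest p that 3 against 3 libraries can give (0.1, exact permutation test, two-sided). It was 1 of 6 ratios compared, chosen after the values were seen (adjusted p = 0.15 over the 6, exact permutation test). The ratios of Id1 to Id2, Id3 to Id2 and Tgfb1 to Bmp2 separated the groups too, with the same p.

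The Id genes did not share a call. Id1 had 1667, 1585 and 1568 normalised counts in vehicle replicates 1, 2 and 3 and 1528, 1734 and 1546 in 4-OHT replicates 1, 2 and 3. The groups overlapped fully and their means were 1607 ± 53.2 and 1603 ± 114 (SD, n = 3). The log2 difference was -0.0054 (limma adjusted p = 0.95), with a 95% interval from -0.13 to 0.12. Of all tested rows, 98.6% had a larger log2 change in size.

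Id2 had 429, 412 and 367 normalised counts in vehicle and 290.3, 364 and 305 in 4-OHT, in order of replicate. All 3 4-OHT libraries were lower, though 4-OHT replicate 2 nearly reached vehicle replicate 3. The mean fell from 403 ± 32.2 to 319.7 ± 38.9 (SD, n = 3), a log2 change of -0.34 ± 0.10 (SE, limma adjusted p = 0.00943). Without vehicle replicate 1 it was -0.29, with a limma adjusted p of 0.053.

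Id3 had 129.7, 140.4 and 139 normalised counts in vehicle and 124, 171 and 167 in 4-OHT, in order of replicate. 4-OHT replicate 1 was the lowest of all 6 libraries and 4-OHT replicates 2 and 3 were the highest. The log2 change was 0.16 ± 0.14 (SE, limma adjusted p = 0.385), with a 95% interval from -0.14 to 0.46, and it turned to -0.14 with 4-OHT replicate 1 as the sole treated library.

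**Figure D2:**
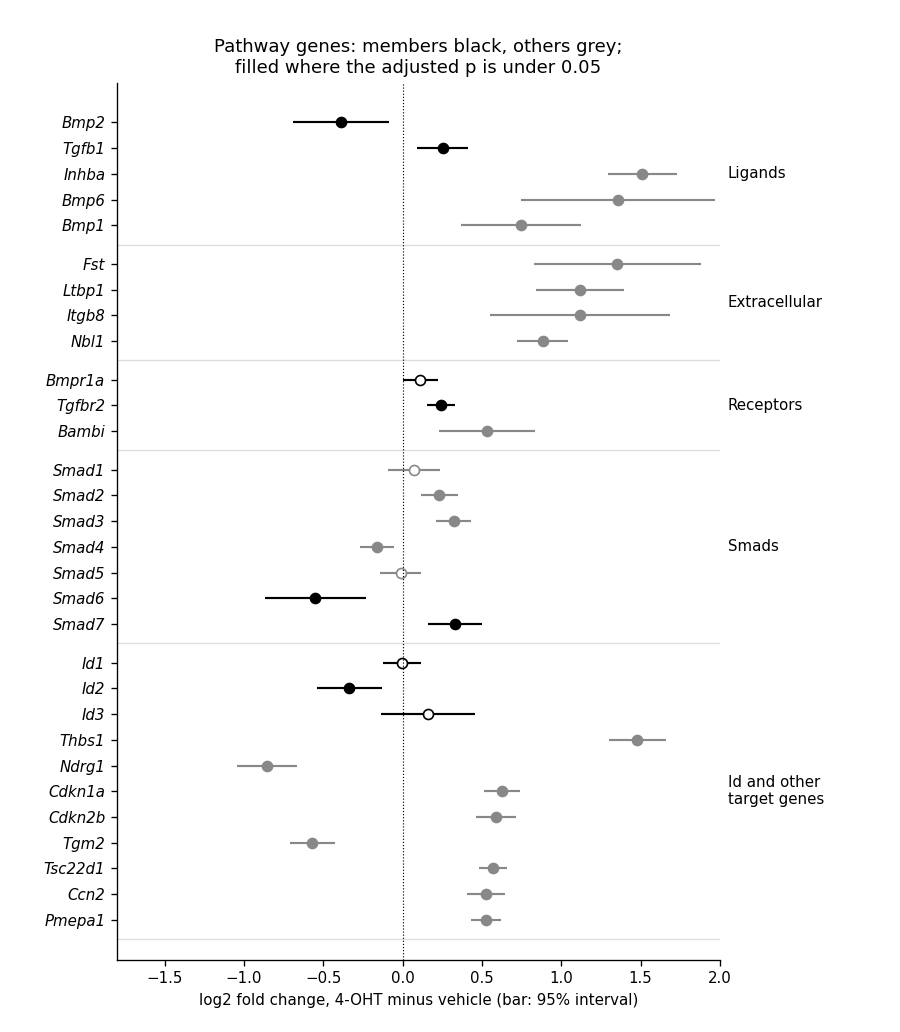
Log2 fold change (4-OHT minus vehicle) with its 95% interval for the 9 tested members (black) and the other named pathway genes (grey), filled where the adjusted p was under 0.05. Smad6 at -0.55 and Smad7 at 0.33 bound the members, whereas Inhba and Thbs1 lie near 1.5 and Ndrg1 at -0.86.

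Levels of different genes were compared as normalised counts per kilobase of exon, with lengths from a GRCm38 annotation although the labels name GRCm39. In vehicle the order was Id1 (1385 ± 45.9, SD, n = 3), Tgfbr2 (950.0 ± 22.7), Bmpr1a (242.5 ± 4.97), Smad7 (213.5 ± 24.5), Id2 (165 ± 13.2), Tgfb1 (124 ± 12.9), Bmp2 (104 ± 23.9), Id3 (76.2 ± 3.29), Smad6 (36.2 ± 2.03) and Bmp4 (1.17 ± 1.02). The vehicle libraries of the neighbours Bmpr1a and Smad7, Tgfb1 and Bmp2, and Bmp2 and Id3 overlapped, and the other neighbours were apart. In 4-OHT the order was the same except that Smad7 (268 ± 27.8) stood above Bmpr1a (262 ± 12.1), Tgfb1 (148 ± 5.69) above Id2 (131 ± 16.0) and Id3 (86.1 ± 14.6) above Bmp2 (78.9 ± 13.7), each pair overlapping. On this scale Id1 was 85.1% ± 0.431 (SD, n = 3) of the summed level of the 4 Id genes in vehicle and 86.2% ± 0.869 in 4-OHT. Id2 took 10.4%, 10.5% and 9.51% in vehicle replicates 1, 2 and 3 and 7.89%, 8.56% and 8.04% in 4-OHT replicates 1, 2 and 3, all lower, and Id3 took 4.69% ± 0.343 and 5.36% ± 0.718.

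Tgfbr2 made up 80.7%, 79.7% and 80.7% of the summed level per length of the 4 type II receptors in vehicle and 85.3%, 84.7% and 83.7% in 4-OHT, higher in every 4-OHT library. The share of the activin receptor Acvr2a was 10.4% ± 0.431 in vehicle and 7.51% ± 0.919 in 4-OHT (SD, n = 3). Among the 7 type I receptors the share of Bmpr1a was 25.2% ± 0.863 in vehicle and 25.5% ± 1.52 in 4-OHT. Acvr1 took 20.3% ± 0.791 and 25.5% ± 0.861, and Acvr1b took 42.9% ± 0.762 and 37.8% ± 0.325. The count of Acvr1 itself was higher in 4-OHT (log2 change 0.42, limma adjusted p = 1.64e-05), whereas that of Acvr1b did not pass (-0.09, limma adjusted p = 0.195) and its groups overlapped. Of the ligands, Tgfb1 held 7.502% ± 0.922 and 7.48% ± 0.541, while Bmp2 went from 6.21% ± 1.01 to 3.96% ± 0.447 and the activin subunit Inhba from 1.77% ± 0.356 to 4.17% ± 0.0983. Gdf15, a stress-induced ligand that signals through another type of receptor, was the largest ligand at 53.2% ± 0.711 and 53.1% ± 3.28. These shares are descriptions, with no test.

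**Figure D3:**
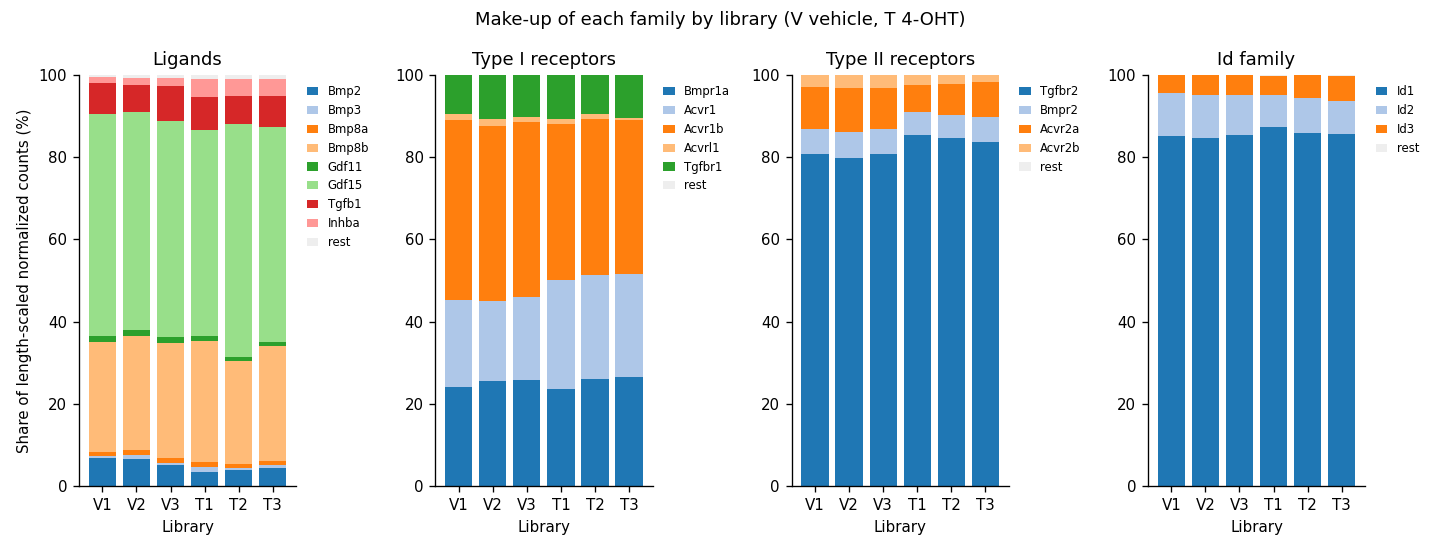
Share in percent of the summed length-scaled normalised counts that each gene takes within the Id genes, the receptors and the ligands, by library. Id2 takes 9.51% to 10.5% in vehicle against 7.89% to 8.56% in 4-OHT, and Tgfbr2 takes 79.7% to 80.7% against 83.7% to 85.3%.

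The members also differed among the 4-OHT libraries. In 8 of the 10 members (80%), all but Tgfb1 and Tgfbr2, the lowest 4-OHT value was in replicate 1, against 34.3% of all tested rows. The 8 include Bmp4, which was too low to be among the tested rows, and the difference in shares was not tested. With 4-OHT replicate 1 as the sole treated library, Id2 was at -0.47, Smad6 at -0.67, Bmp2 at -0.68 and Tgfbr2 at 0.25. A single library has no spread of its own, so only the sizes are given here. With replicates 2 and 3 as the treated group, Id2 was at -0.27 (limma adjusted p = 0.042), Smad6 at -0.49 (0.0227), Tgfbr2 at 0.24 (0.000347) and Smad7 at 0.41 (0.000215), while Bmp2 was at -0.24 and did not pass (0.176). In this fit of replicates 2 and 3, 4 members were higher and 2 were lower (42.6% of all tested rows called). Of the tested members, Id1 and Id3 changed direction between the 2 fits and the others did not. The difference between the 2 fits was not tested, and they share the vehicle libraries. Replicates 2 and 3 are those with more Paneth-cell, ileal and smooth muscle marker reads.

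**Figure D4:**
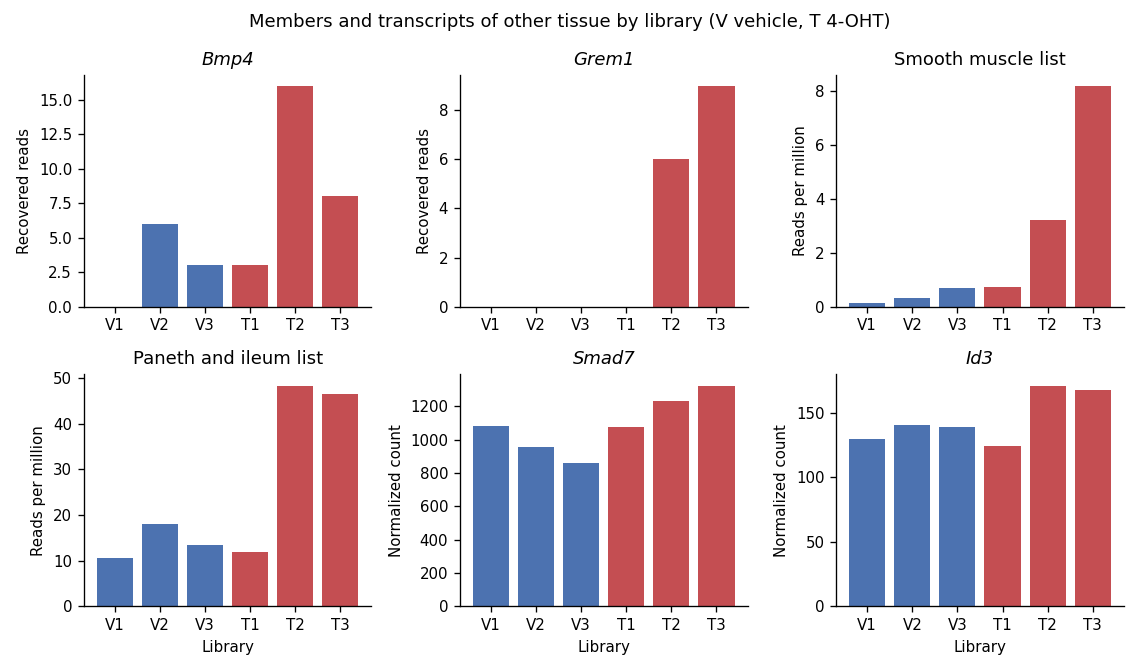
Bars by library (V vehicle, T 4-OHT) show recovered reads of Bmp4 and of the BMP antagonist Grem1, summed RPM of the smooth muscle and the Paneth and ileal markers, and normalised counts of Smad7 and Id3. In 4-OHT replicates 2 and 3 the Paneth and ileal markers reach 48.3 and 46.5 RPM, against 11.8 in replicate 1.

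The Smads that carry the signal to the nucleus were called in part. Smad3 rose from 2109.6 ± 136 to 2632 ± 69.1 normalised counts (SD, n = 3), a log2 change of 0.32 ± 0.05 (SE, limma adjusted p = 5.37e-05), and Smad2 from 1213 ± 34.4 to 1423.5 ± 58.7 (0.23 ± 0.06, limma adjusted p = 0.00221). For both genes every 4-OHT library was above every vehicle library. The common partner Smad4 was lower in all 3 4-OHT libraries, at 2127 ± 100.9 against 2378 ± 37.5 (-0.16 ± 0.05, limma adjusted p = 0.0128), a call lost without vehicle replicate 1 (-0.15, adjusted p = 0.0552) or 4-OHT replicate 1 (-0.12, adjusted p = 0.0649), where the direction held. The BMP-regulated Smad1 (0.07, limma adjusted p = 0.498) and Smad5 (-0.01, 0.90) did not pass. Smad9 stayed under 9 normalised counts in every library and was not tested. It had 2.80, 4.26 and 8.47 in vehicle and 1.03, 1.04 and 2.28 in 4-OHT, so all 3 4-OHT libraries were lower.

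Beyond the members, 99 genes of the pathway were listed, of which 93 were in the table and 65 were tested. Of these 30 were higher, 7 were lower and 28 did not pass, with a median log2 change of 0.12, beside the 22.7% and 21.0% of all tested rows. The lists were chosen with earlier results of these data known, so their counts are a description and not a test. Among the 9 tested genes of the ligand list, which includes the protease Bmp1, 5 were higher and 4 did not pass (median 0.25). The activin subunit Inhba had 162, 187 and 208 normalised counts in vehicle and 497, 581.5 and 509 in 4-OHT (1.51 ± 0.10, log2, SE, limma adjusted p = 9.55e-10). Bmp6 rose from 15.9 ± 3.87 to 41.8 ± 6.29 (log2 change 1.36, limma adjusted p = 0.000844), and Bmp1, which cleaves procollagen and the BMP antagonist chordin, from 80.2 ± 20.8 to 132 ± 8.94 (0.74, limma adjusted p = 0.00229).

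Over all tested rows 22.7% were higher and 21.0% lower. Among 10 tested receptors 2 were higher, 2 were lower and 6 did not pass (median -0.20), shares close to those of all rows. The lower receptors were the activin receptor Acvr2a (-0.31, limma adjusted p = 0.00745) and the BMP co-receptor Rgmb (-0.38, limma adjusted p = 0.00212), both named after their values were seen, and the higher ones were Acvr1 and Bambi. The decoy receptor Bambi, which lacks a kinase domain, had 117, 101 and 103 normalised counts in vehicle and 183, 139 and 146 in 4-OHT (0.53, limma adjusted p = 0.0054). Of 10 tested extracellular antagonists, latency proteins and activators, 7 were higher and 3 did not pass (median 0.44). Fst, which traps activins, rose from 28.4 ± 9.45 to 71.8 ± 8.92 (1.35, limma adjusted p = 0.000204), and Nbl1, a BMP antagonist, from 766 ± 71.1 to 1412 ± 133 (0.88, limma adjusted p = 1.65e-08). Ltbp1, which tethers latent TGF-beta, rose by 1.12 on the log2 scale (limma adjusted p = 1.06e-06), as did the integrin subunit Itgb8, which helps to activate it (1.12, limma adjusted p = 0.00224). The 18 tested intracellular regulators held 7 higher genes and 1 lower gene, and 10 did not pass (median 0.09, range -0.16 to 0.45).

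Of 17 tested genes known as Smad targets in 1 or more cell types, 11 were higher, 3 were lower and 3 did not pass, with a median log2 change of 0.52, beside 22.7% higher and 21.0% lower over all tested rows. This list too was chosen with earlier results of these data known, so the difference in shares is no test. The list shares 6 genes with the other lists, Bambi and Fst among them. Thbs1, whose protein activates latent TGF-beta, had 323, 376 and 399.5 normalised counts in vehicle and 1105, 914 and 1046 in 4-OHT (1.48 ± 0.09, SE, limma adjusted p = 9.1e-11). Pmepa1, a feedback inhibitor that binds Smad2 and Smad3, rose from 4266 ± 84.3 to 6140.1 ± 277, by 0.52 (limma adjusted p = 1.74e-08). The cell-cycle inhibitors Cdkn1a (0.63, limma adjusted p = 1.96e-08) and Cdkn2b (0.59, limma adjusted p = 1.5e-07), the leucine zipper gene Tsc22d1 (0.57, 1.96e-09) and the matricellular gene Ccn2 (0.52, 3.67e-07) were also higher. Ndrg1 (-0.86, limma adjusted p = 2.29e-07) and the transglutaminase Tgm2 (-0.57, limma adjusted p = 1.04e-06) were lower. In the genes named here for a log2 change of at least 0.5 the groups did not overlap.

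**Figure D5:**
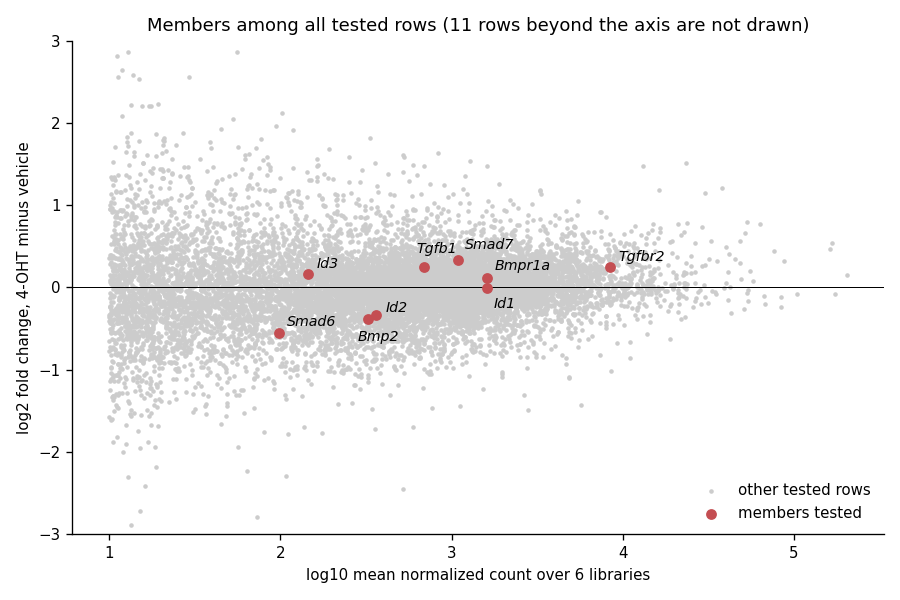
Log2 fold change (4-OHT minus vehicle) against the log10 of the mean normalised count for the tested rows in grey, less 11 rows beyond the axis, with the 9 tested members in red. The members lie between -0.55 and 0.33, all within 1 log2 unit of 0.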

How the data were processed

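RNA of 6 libraries (3 vehicle, 3 4-OHT) was extracted with TRIzol and sequenced at GENEWIZ, with a library kit and strand setting not given in the sources used here. The submitters' processing notes name STAR, DESeq2 and GRCm39 (mm39). The deposited signal is a normalised count: the authors divided the reads per gene by 1 size factor per library, with no length correction. In all libraries 100% of values were whole reads within 0.1 reads, and the recovered factors equalled DESeq2's median-of-ratios factors. Recovered reads were 20383663, 26957612 and 15804709 in vehicle and 19268649, 19588575 and 17603040 in 4-OHT, by replicate.

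The groups were compared by limma-trend (R 4.3.3, limma 3.58.1), two-sided, on log2(normalised count + 1), over the 13210 of 25067 rows with a mean of at least 10, with Benjamini-Hochberg adjustment over all of these and a threshold of 0.05. Fold changes are on that scale, which understates low genes, and errors are SD for means and SE for fits. Count tests of the recovered reads (edgeR 4.0.16, DESeq2 1.42.0), other scalings, pseudocounts and filters, a replicate block and leaving out libraries were alternatives, and the fit was tested on simulated data. Replicates differed beyond counting noise (chi-square per degree of freedom 3.55 to 6.41). Levels per length used GENCODE exon lengths and assume reads spread along transcripts. The members and lists were chosen with earlier results of these data known. Named were all members, the tested Smads, Prkci, Prkcz and the other listed genes called with a log2 change of at least 0.5, less 1 result not reported here. Of the lists, 6 pathway genes absent from the table were not analysed here.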

Additional observations from a re-analysis of the deposited data

How the results depend on the processing

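The reported fit was set beside 16 alternatives. Apart from the fit with 4-OHT replicate 1 as the sole treated library, they called 4946 to 5780 genes. With edgeR 5780 and with DESeq2 5208 were called, and the middle of all fold changes moved by less than 0.1 (log2) in each setting. Smad6, Tgfbr2, Prkci, Prkcz, Smad2, Smad3, Inhba and Thbs1 kept their direction in all 16. They kept their call in each with more than 1 4-OHT library. Fst, Ltbp1, Nbl1, Ndrg1, Bmp1, Cdkn1a, Cdkn2b, Tgm2, Tsc22d1, Bambi, Ccn2 and Pmepa1 did the same. With 4-OHT replicate 1 as the sole treated library, 1991 genes and 1 member were called higher, Id3 turned to -0.14 and Smad1 to -0.0635, Smad5 to 0.0871, and Smad7 (0.16), Tgfb1 (0.23) and Itgb8 (0.99) were no longer called. Leaving out 1 library at a time, 1 to 3 members were called lower, with Id1 from -0.0634 to 0.0278, Smad5 from -0.0604 to 0.0301, Id2 from -0.43 to -0.27, Bmp2 from -0.59 to -0.24, Bmpr1a from 0.0795 to 0.15 and Tgfb1 from 0.17 to 0.32. Id1 turned positive without vehicle replicate 1 (0.0216), 4-OHT replicate 1 (0.0278) or 4-OHT replicate 3 (0.0195), always with a limma adjusted p of at least 0.754, and Smad5 turned positive without vehicle replicate 3 (0.0051) or 4-OHT replicate 2 (0.0301). Bmp2 was also not called after quantile normalisation (-0.33, limma adjusted p = 0.0891) or with DESeq2 (-0.41, adjusted p = 0.192). In each case the cause was not tested. Bmp6 and Itgb8 had no value with a minimum mean of 50.

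Libraries of the same replicate number did not deviate together (correlations of -0.007, 0.03 and -0.02, others -0.048 to 0.047, own number best in 2 of 6), so the numbers were not taken as pairs. With the replicate number as a block 5637 genes and 6 members were called, and no member's call changed. Depth limits Bmp4, Bmper, Grem1, Id4 and Smad9, which had too few reads for a firm fold change.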

Other observations

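A group of 3 low-count genes of the pathway lists, left out of the comparison by the minimum mean of 10, was singled out after their values were seen. When rows of any level entered the test, Grem1 (limma adjusted p = 0.0204), Id4 (0.0413) and Bmper (0.0448) passed it, unlike Bmp4. Since the choice followed the values, these p-values carry no weight as a test, and the values are a description. Smad9, another low-count gene, lay the other way, as given above. Id4, the least counted Id gene, had 3.73, 3.55 and 7.26 normalised counts in vehicle and 16.5, 11.4 and 15.9 in 4-OHT, so that all 3 4-OHT libraries were higher. Bmper, a secreted BMP-binding protein, had 1.87, 1.42 and 2.42 normalised counts in vehicle and 11.4, 5.18 and 7.97 in 4-OHT. Grem1, a BMP antagonist made by the muscle and stroma under the crypts, was counted with 6 reads in 4-OHT replicate 2, 9 reads in 4-OHT replicate 3 and 0 in each of the other libraries, and the former are those with the most smooth muscle marker reads. The part of those marker reads in the Grem1 value was not tested.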
